A study of Mus musculus with 10 samples.

Results

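The 77 genes described here carry the symbols of mitochondrial ribosomal proteins. They were chosen by name alone, as every row of the count table whose symbol is Mrpl or Mrps followed by a number and at most 1 letter, and they are 77 of the table's 35976 genes (48 Mrpl and 29 Mrps). RNA was sequenced from mouse morulae, the compacting ball of cells that precedes the blastocyst, with and without Jarid2. Jarid2 is a cofactor of PRC2, the Polycomb complex that methylates lysine 27 of histone H3, and the series compares knockout with control morulae. All embryos had the strain label BDF1 x PWK. A set of 6 libraries held 1 female embryo each, 3 wild-type and 3 Jarid2 knockout (replicates 1, 3 and 4). A set of 4 libraries held pools of about 20 morulae, 2 control and 2 Jarid2 knockout, for which no sex is given in the sources used here. The labels give neither the knockout allele nor whether maternal Jarid2 was also removed, and they do not say how the pooled control embryos differ from wild type, if they do.

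The mitochondrial ribosome translates the membrane proteins that the mitochondrial genome encodes, all of them parts of the oxidative phosphorylation complexes. Its proteins are encoded in the nucleus, made in the cytoplasm and imported. Its large subunit forms peptide bonds and its small subunit reads the mRNA, and each combines proteins with a bacterial homologue and proteins that bacteria lack. Of the 77 genes, 30 were classed as encoding large-subunit proteins with a bacterial homologue and 20 as encoding large-subunit proteins without one. A further 16 were classed as encoding small-subunit proteins with a bacterial homologue and 10 as encoding small-subunit proteins without one. Mrps30 and Mrps18a are counted with the large subunit, where their proteins sit despite the names. Mrps36 was assigned to neither, since its protein is now regarded as a subunit of the 2-oxoglutarate dehydrogenase complex.

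Total counts were 14830332 to 17534188 in the wild-type single embryos, 18015186 to 18696312 in the knockout single embryos and 41003216 to 49861963 in the pools, so that the single-embryo groups did not overlap in depth. Jarid2 was measured at 580.3, 686 and 776 CPM (its share of the library total on a common scale) in wild-type embryos 1 to 3 and at 156, 319 and 61.3 CPM in knockout embryos 1, 3 and 4. Every knockout embryo lay below every wild-type embryo, and knockout replicate 3 kept the most Jarid2 RNA. The pools held 442 and 496 CPM in controls and 181 and 158 CPM in knockouts. Pluripotency genes were abundant in every library (8 markers summed to 3968 to 5322 CPM), and the 8 trophectoderm markers summed to 928 to 2422 CPM. The 8 cumulus-cell markers summed to at most 50.3 CPM, with Fshr, Has2, Ptx3 and Inha at 0 counts in every library, and the 8 oocyte markers summed to 37.5 to 163 CPM.

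In single embryos the transcripts of this family lay higher in Jarid2 knockouts than in wild type across nearly the whole list, by a small amount each. The 77 genes together took 1.05%, 1.07% and 1.16% of the counts of wild-type embryos 1 to 3, against 1.37%, 1.29% and 1.49% in knockout embryos 1, 3 and 4. The groups did not overlap (1.09% ± 0.056 against 1.38% ± 0.10, SD, n = 3). The fitted change was above 0 for 72 of the 77 genes (93.5%), against 48.3% of the 13830 genes tested. Their median log2 change was 0.43, against -0.03 over all genes tested, and their middle 50% spanned 0.26 to 0.61. Tested gene by gene with edgeR's quasi-likelihood test and Benjamini-Hochberg adjustment at 5% over all genes, 1 of the 77 rose (Mrpl46) and none fell. Of all genes tested, 4.37% were called, 1.16% higher and 3.21% lower, so the share of the family called higher (1.3%) was near that background.

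Other measures and settings took in more of the family. At an unadjusted p under 0.05, 31 of the 77 genes were higher (40.3%, against 10.4% of all genes tested) and 0 lower (against 12.2%). In 44 genes (57.1%) every knockout embryo lay above every wild-type embryo, against 12.6% of all genes tested, and in 0 genes did every knockout lie below (against 15.3%). DESeq2 called 24 of the 77 higher and 0 lower (against 6.88% and 7.27% of all genes tested). The edgeR count was 15 without knockout replicate 3 and 13 with no filter on low counts, and the calls over all genes rose too, from 605 to 1316 and 1715 in either direction. It was 0 without any other single library, where 1 to 520 of all genes were called. The median change stayed positive when each library was left out in turn (0.32 to 0.54).

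Other genes of the same length and abundance were also higher in the knockout single embryos. The median log2 change of all tested genes was 0.25 for transcripts up to 1000 bases and 0.29 from 1000 to 2000 bases, but -0.42 above 4000 bases. Genes above a mean of 100 CPM had a median of 0.25. For the 1087 genes over 500 and up to 2000 bases long and above 100 CPM the median was 0.40, close to the 0.44 of the 42 mitochondrial ribosomal protein genes among them. The 6 genes of the family listed as longer than 4000 bases had a median of 0.35, and the 13 between 2000 and 4000 bases one of 0.57. The lengths are medians over annotated coding transcripts, and some exceed the gene's RefSeq span. Among these are Mrps26 (4278 bases, chr2:130563757-130565394) and Mrpl51 (3427 bases, chr6:125192200-125194392). The 2 groups of longer genes may therefore hold genes whose transcripts are shorter. In the pools the 1087 genes had a median of -0.15 and the 42 family genes among them -0.13. The part of transcript length, abundance or depth in the result was not tested. In whole embryos, fewer cells of a type and less RNA per cell cannot be told apart.

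**Figure D1:**
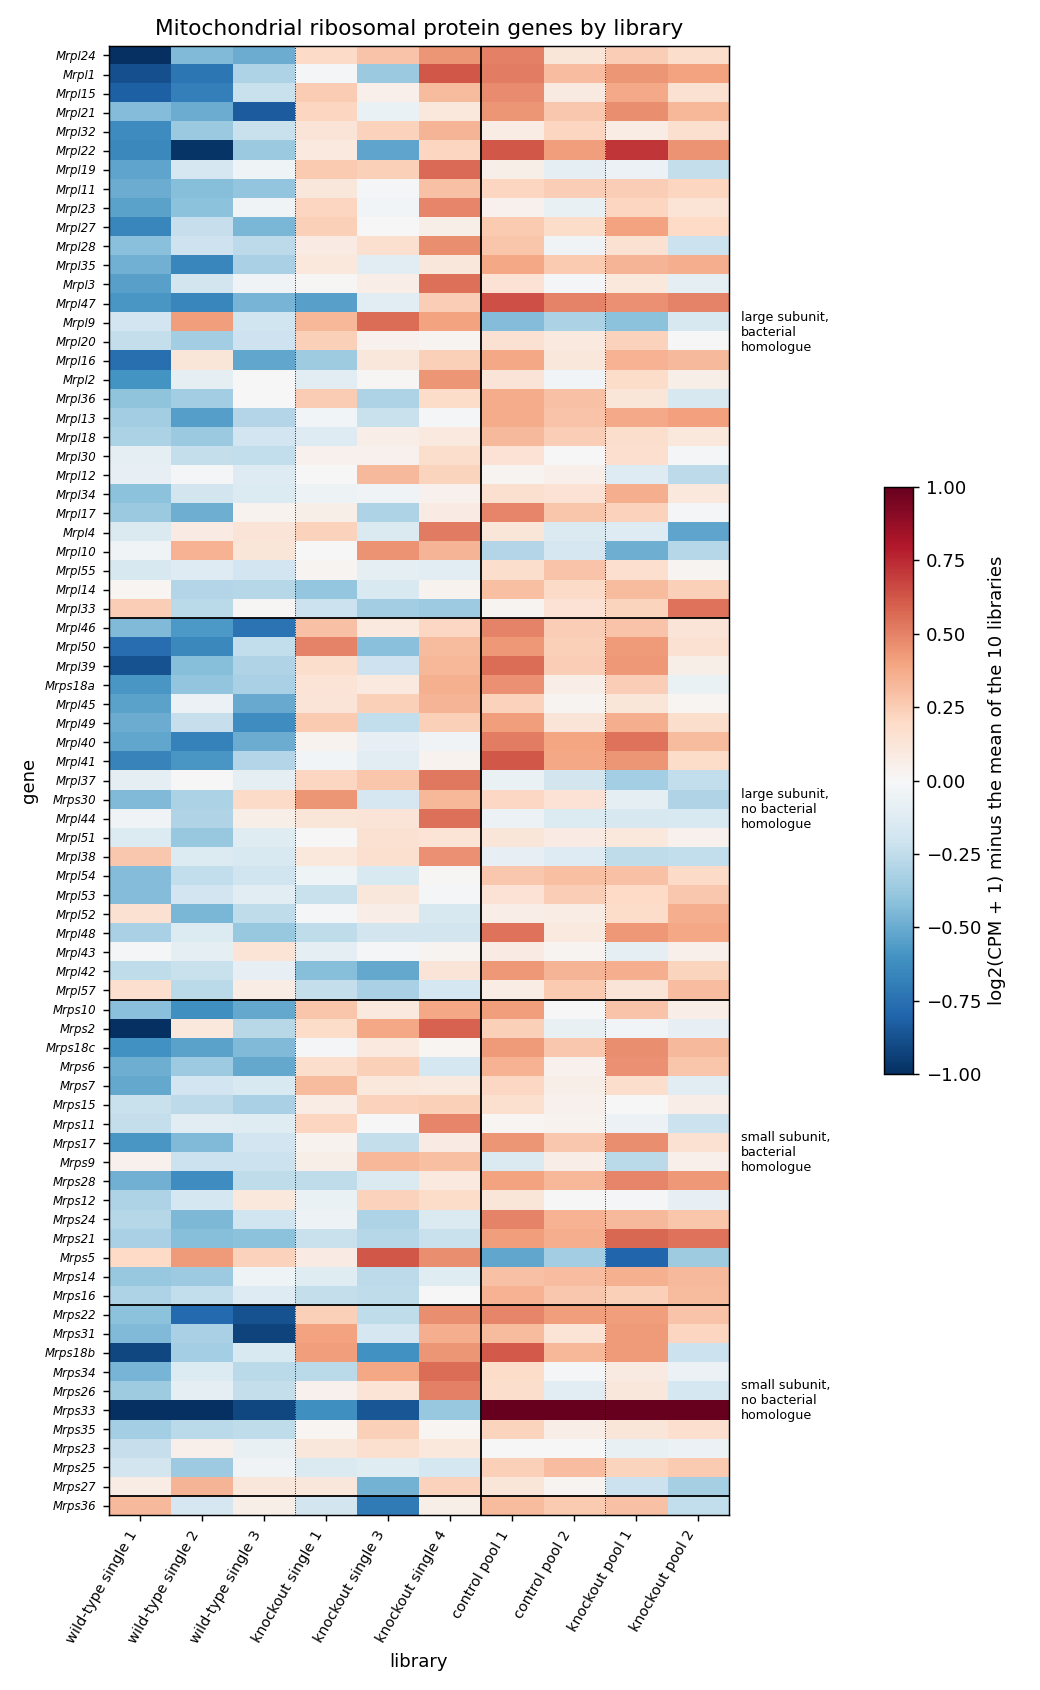
Heat map of the 77 genes (rows, by subunit and bacterial homology, in order of their log2 change in single embryos) in the 10 libraries (columns); colour is log2(CPM + 1) minus the gene's mean over the 10 libraries, with values past 1 in either direction shown at the end of the scale. The median deviation was -0.41, -0.29 and -0.22 in the wild-type single embryos and between -0.01 and 0.26 in the other 7 libraries.

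Mrpl46, which encodes a large-subunit protein without a bacterial homologue (chr7:78775341-78783089 in GRCm38.p6), was at 96.2, 87.3 and 77.9 CPM in wild-type embryos 1 to 3 and at 160.0, 139.6 and 151 CPM in knockout embryos 1, 3 and 4. The groups were well separated, and each was tight (87.1 ± 9.12 against 150.2 ± 10.2, SD, n = 3). Its log2 change was 0.84 (SE 0.21), with an adjusted p of 0.0453 by edgeR and 0.00202 by DESeq2. The edgeR call was lost without any 1 of 5 of the 6 embryos. The adjusted p was 0.123, 0.0946 and 0.156 without wild-type replicates 1, 2 and 3, and 0.153 and 0.155 without knockout replicates 1 and 4. It held without knockout replicate 3, and the log2 change stayed between 0.75 and 0.94 over all 16 alternatives.

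The genes next in order of p narrowly missed the threshold. Mrps10, whose protein has a homologue in the head of the bacterial small subunit (chr17:47368887-47381418), was at 92.4, 80.6 and 86.6 CPM in wild-type and 150, 132 and 162 CPM in knockout embryos, with a log2 change of 0.83 (SE 0.21, adjusted p = 0.0507). Mrpl24, whose bacterial homologue is an early-assembling large-subunit protein (chr3:87918131-87923450), was at 29.6, 45.0 and 43.2 CPM in wild type and 70.2, 75.1 and 83.4 CPM in knockouts. Its log2 change of 1.0 (SE 0.26, adjusted p = 0.0530) was the family's largest and the 1 that reached 1. Mrpl21, a large-subunit gene with a bacterial homologue (chr19:3282997-3292837), was at 206, 196 and 155 CPM in wild type and 324, 265 and 299 CPM in knockouts (log2 change 0.73, SE 0.20, adjusted p = 0.0627). In each of these genes every knockout embryo lay above every wild-type embryo.

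The sources used here do not say how the counting treated strand. Of the genes named here, Mrpl24 (with Rrnad1), Mrpl21 (with Ighmbp2), Mrps18a (with Rsph9), Mrpl33 (with Gm38424), Mrpl57 (with Ska3), Mrpl19 (with Gcfc2) and Mrpl48 (with Rab6a) overlap another counted gene, and their reads may include those of that gene. RefSeq also lists 6 pseudogenes named after the family, of which 0 are in the count table, and reads they share with their parent genes cannot be told apart. Among the 56 genes that overlap no other counted gene the median was 0.44, with 53 of 56 above 0.

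**Figure D2:**
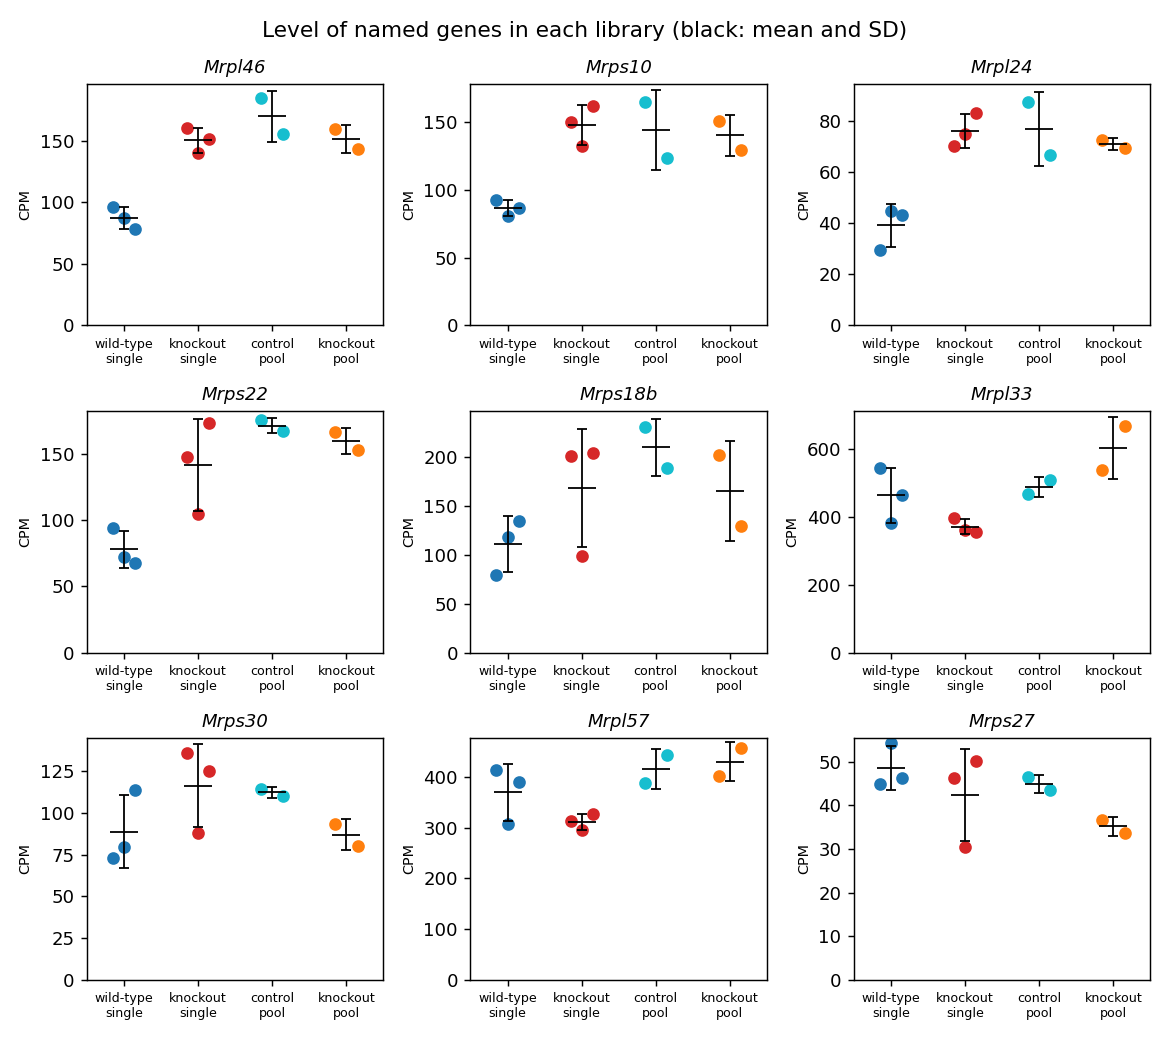
CPM of 9 named genes in each library (points), with the group mean and SD in black (n = 3 for the single-embryo groups, n = 2 for the pools); every vertical axis starts at 0. Mrpl46, Mrps10, Mrpl24 and Mrps22 in the wild-type single embryos lie below all other libraries. Mrpl33, Mrpl57 and Mrps27 have lower means in knockout than in wild-type single embryos.

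The medians of both subunits and of both classes of protein lay close together. The 50 large-subunit genes had a median log2 change of 0.43 (47 above 0, 1 called) and the 26 small-subunit genes one of 0.44 (25 above 0, 0 called). Large-subunit genes with a bacterial homologue had a median of 0.43 and those without one also 0.43, and the small-subunit classes had medians of 0.41 and 0.49. DESeq2 called 17 of the 50 and 7 of the 26 higher (6.88% of all genes tested). Among the large-subunit genes, Mrpl15, which has a bacterial homologue, was at 136, 149 and 206 CPM in wild-type and 287, 248 and 299.7 CPM in knockout embryos, without overlap. In Mrpl12, whose protein belongs to the stalk that recruits translation factors, the values were 297, 309.7 and 288 CPM in wild type and 314, 393 and 366 CPM in knockouts, again without overlap but by a smaller step (log2 change 0.30, SE 0.16). Mrpl15 and Mrpl12 were chosen after their values were seen.

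Mrps18a, Mrps18b and Mrps18c are paralogues, of which only Mrps18c is counted here with the genes that have a bacterial homologue. Paralogues share an ancestor, so the class without a homologue is not strict for Mrps18a and Mrps18b. The product of Mrps18a sits in the large subunit and the others in the small one. Mrps18a (chr17:46111004-46128908) was at 118, 135 and 141 CPM in wild type and 195, 189.8 and 227 CPM in knockouts, with a log2 change of 0.69 (SE 0.20, adjusted p = 0.0732). Mrps18c (chr5:100798759-100804467) was at 209, 220.0 and 235 CPM in wild type and 315, 343 and 325 CPM in knockouts, with a log2 change of 0.61 (SE 0.17, adjusted p = 0.0678). Both genes separated the groups. Mrps18b (chr17:35910380-35916440) did not: knockout embryo 3, at 98.7 CPM, lay among the wild-type values of 79.6, 118 and 135 CPM, while the other knockout embryos were at 202 and 205 CPM. Its log2 change was 0.67 (SE 0.33, adjusted p = 0.258). Mrps30 (chr13:118380110-118387252), a large-subunit gene despite its symbol, also overlapped, at 73.0, 79.6 and 114 CPM in wild type and 136, 88.2 and 125 CPM in knockouts (log2 change 0.45, SE 0.28, adjusted p = 0.375).

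Knockout embryo 4 had the highest CPM of the knockouts in 47 of the 77 genes, embryo 1 in 16 and embryo 3 in 14. The lowest was that of embryo 3 in 38 genes, of embryo 1 in 31 and of embryo 4 in 8. These ranks were not counted over all genes, and a relation to the remaining Jarid2 RNA was not tested. Embryos 1, 3 and 4 lay above all wild-type embryos in 55, 52 and 66 of the 77 genes, against 26.7%, 30.5% and 28.2% of all genes tested.

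In 5 of the 77 genes the fitted change in single embryos was below 0, and none of these passed the test. Mrpl33, a small large-subunit protein with a bacterial homologue (chr5:31613951-31622644), was at 544, 381 and 464 CPM in wild type and 395, 361 and 356 CPM in knockouts (log2 change -0.27, SE 0.19, adjusted p = 0.452). Mrpl57 (chr14:57826228-57829087), a large-subunit gene without a bacterial homologue, was at 414, 307 and 389 CPM in wild type and 314, 294 and 326 CPM in knockouts (log2 change -0.20, SE 0.19, adjusted p = 0.591). The groups overlapped in both. Mrps36, the gene assigned to neither subunit (chr13:100735940-100744659), was at 19.7, 13.7 and 16.2 CPM in wild type and 13.5, 9.09 and 16.2 CPM in knockouts (log2 change -0.29, SE 0.39, adjusted p = 0.715). Mrps27, whose protein carries pentatricopeptide repeats that bind RNA (chr13:99344767-99415562), was at 45.0, 54.2 and 46.3 CPM in wild type and 46.3, 30.5 and 50.2 CPM in knockouts. Its log2 change of -0.13 (SE 0.29, adjusted p = 0.834) turned to 0.10 without knockout replicate 3, the lowest library. Mrpl42, a large-subunit gene without a bacterial homologue, had a log2 change of -0.0044 (SE 0.22).

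In the pools the family's changes were small and mostly below 0, and none passed the test. The 77 genes took 1.65% and 1.52% of the counts of control pools 1 and 2 and 1.60% and 1.48% of those of knockout pools 1 and 2, so the groups overlapped. The median log2 change was -0.13 (0.01 over all genes tested), with 67 of the 77 genes below 0 and 10 above (48.7% and 51.3% of all genes). With no scaling of the libraries the median was -0.042, with 52 below 0. By edgeR 0 of the 77 were called in either direction, as were 0.0% of the 16259 genes tested, and DESeq2 also called 0 of the 77 (0.394% of all genes higher and 0.0431% lower). With an unadjusted threshold of 0.05, 0 were higher and 3 lower (against 4.26% and 2.34% of all genes). Both knockout pools lay below both controls in 15 genes (19.5%, against 11.1% of all genes) and above both in 8 (against 24.3%). The library left out moved the median between -0.24 (without knockout pool 1) and -0.020 (without knockout pool 2).

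The 3 genes with an unadjusted p under 0.05 in the pools were Mrps30, Mrps27 and Mrpl36. Mrps30 was at 115 and 110.1 CPM in control and 93.4 and 80.3 CPM in knockout pools, a log2 change of -0.45 (SE 0.18, adjusted p = 0.697). Mrps27 was at 46.4 and 43.4 CPM in control and 36.6 and 33.6 CPM in knockout pools (log2 change -0.44, SE 0.18). Mrpl36, whose bacterial homologue is the smallest protein of the large subunit (chr13:73328503-73332178), was at 338 and 319 CPM in control and 284 and 233 CPM in knockout pools (log2 change -0.43, SE 0.19). The next in order, Mrpl17 (chr7:105803782-105811087), a large-subunit gene with a bacterial homologue, was at 707 and 611 CPM in control and 589 and 499 CPM in knockout pools (log2 change -0.36, SE 0.19). In all 4 genes the knockout pools lay below the controls, and the adjusted p was 0.697 or above. Without knockout pool 1, which leaves 1 knockout library, Mrps18b had a log2 change of -0.86. With all 4 pools it was at 231 and 189 CPM in controls and 202 and 129 CPM in knockouts (log2 change -0.42, SE 0.24, adjusted p = 0.825).

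The smallest p values for a positive change in the pools were those of Mrpl33, Mrpl52, Mrpl23 and Mrps21, and all lay far from the threshold. Mrpl33 was at 467 and 509 CPM in control and 537 and 668 CPM in knockout pools (log2 change 0.21, SE 0.16, adjusted p = 0.867). Its changes in the single embryos and in the pools thus had opposite signs to the family's medians, with neither past the test. Mrpl52, Mrpl23 and Mrps21 had log2 changes of 0.12, 0.11 and 0.08, and those of Mrpl23 and Mrps21 were about 0 (-0.0052 and -0.0027) without knockout pool 1.

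**Figure D3:**
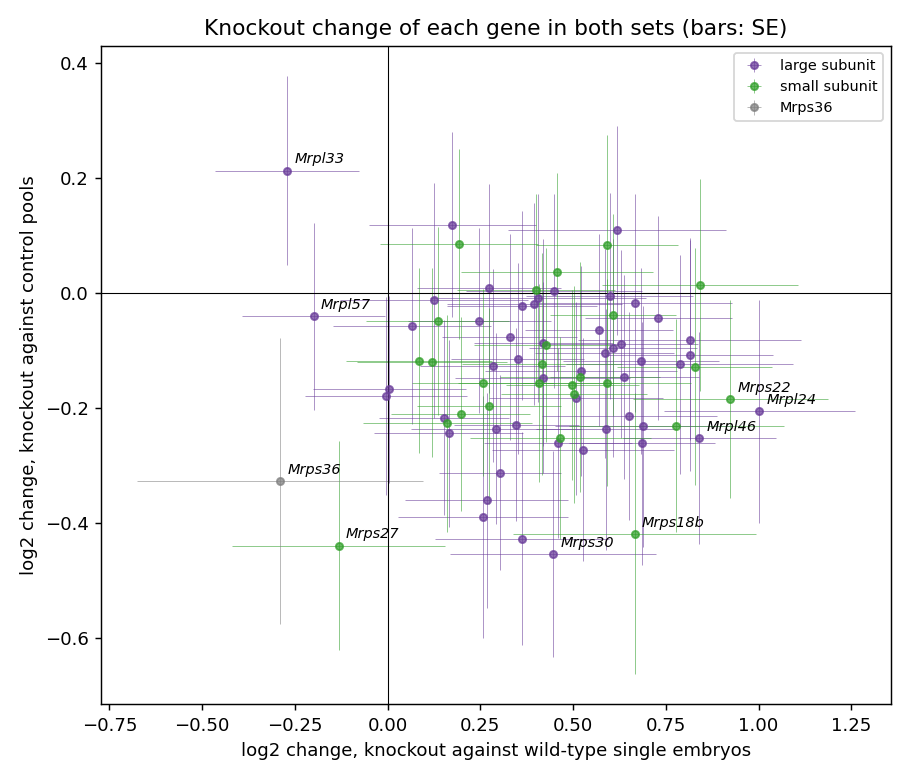
Log2 change of each of the 77 genes in single embryos (horizontal axis) and in pools (vertical axis), coloured by subunit; bars are SEs from edgeR. Of the 77 points, 63 lie to the right of 0 and below 0, and the Mrpl33 point lies to the left of 0 and above 0.

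The change in single embryos exceeded that in the pools for most of the family when the difference itself was fitted over all 10 libraries. It was positive for 75 of the 77 genes (47.9% of the 15878 genes tested), with a median of 0.60 (-0.05 over all genes). No gene of the family passed the adjusted threshold by edgeR (1 of all genes did, 0.0063%). At an unadjusted p under 0.05, 34 were positive and 0 negative (8.10% and 6.55% of all genes). DESeq2 called 8 of the 77 positive and 0 negative (2.01% and 1.42% of all genes), among them Mrpl46, Mrpl24 and Mrps22, and edgeR with no filter called 4. The difference was 1.11 (SE 0.28, adjusted p = 0.235) for Mrpl46 and 1.23 (SE 0.35, adjusted p = 0.235) for Mrpl24. For Mrps22, a small-subunit gene without a bacterial homologue (chr9:98588730-98601679), it was 1.13 (SE 0.35, adjusted p = 0.235).

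These differences can be read from the levels. Mrps22 was at 93.8, 72.5 and 67.6 CPM in wild-type single embryos, 148, 104 and 173 CPM in knockout single embryos, 175 and 167 CPM in control pools and 167 and 153 CPM in knockout pools. Its wild-type single embryos stood alone at the bottom and its knockout single embryos reached from near them up to the pools. Mrpl46 was at 185 and 155 CPM in control and 159.5 and 143 CPM in knockout pools, and Mrps10 at 165 and 124 CPM in control and 151 and 129.7 CPM in knockout pools. The knockout single embryos of both lay within or next to the range of the pools. Mrpl24 was at 87.4 and 66.8 CPM in control and 72.8 and 69.5 CPM in knockout pools, again a range that its knockout single embryos shared and its wild-type single embryos did not reach.

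Across the family, the wild-type single embryos had the lowest group mean of the 4 groups in 62 of the 77 genes. The knockout single embryos were lowest in 5, the control pools in 1 and the knockout pools in 9. This order was not counted over all genes, nor over genes of like length and level. In 47 genes every wild-type single embryo lay below every pool, against 15.5% of all genes tested, and in 25 every knockout single embryo did (7.94%). Single embryos and pools differ in input, in depth and perhaps in the sex of the embryos, and these cannot be told apart. Marker sums differed between the sets too. The 8 trophectoderm markers summed to 2000 to 2094 CPM in wild-type single embryos, 1208 to 2422 CPM in knockout single embryos and 928 to 1454 CPM in the pools. The 8 pluripotency markers summed to 3968 to 4993 CPM, 4099 to 4815 CPM and 4910 to 5322 CPM in the same order. Their part in the result was not tested.

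The gap between the sets varied in size and direction from gene to gene. Mrps33 and Mrps5 show this and were chosen after their values were seen. Mrps33 (chr6:39801804-39810936), a small-subunit gene without a bacterial homologue, was at 39.1, 41.2 and 44.2 CPM in wild-type and 54.4, 45.9 and 64.2 CPM in knockout single embryos but at 194 and 179.7 CPM in control and 210.4 and 196 CPM in knockout pools. The gap between the sets was wider than the whole spread within either. Its knockout changes were 0.46 (SE 0.26) in single embryos and 0.04 (SE 0.17) in pools. Mrps5 (chr2:127587426-127603986), whose bacterial homologue takes part in decoding, went the other way. It was at 59.4, 69.6 and 60.7 CPM in wild-type and 54.9, 79.9 and 71.9 CPM in knockout single embryos, and at 35.8 and 40.3 CPM in control and 29.3 and 40.1 CPM in knockout pools. Mrps5 was not alone in this, as Mrpl9 and Mrpl10 also had higher group means in single embryos than in pools.

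Although a ribosome holds these proteins together in 1 particle, the transcripts of the 77 genes differed 81.0-fold in level per transcript length. CPM per kilobase, averaged over the 10 libraries, was 979.7 for Mrpl33, 584 for Mrpl42 (chr10:95480805-95501949) and 543 for Mrpl22 (chr11:58170043-58179580), whose bacterial homologue lines the exit tunnel. The median gene was at 119.8. The lowest were 12.1 for Mrps5, 17.7 for Mrpl19 (chr6:81957826-81965949) and 22.8 for Mrpl48 (chr7:100545779-100608301). The lengths used were medians over annotated coding transcripts, so a gene whose embryos use a shorter form than most annotated ones is placed too low. Every gene was detected in every library, with a lowest count of 170.

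The neighbours at each end of this order did not all separate. In wild-type single embryos Mrpl33 was at 969 ± 171 CPM per kilobase (SD, n = 3), above Mrpl42 at 502 ± 32.6 and Mrpl22 at 323 ± 66.8. In knockout single embryos Mrpl42 at 483 ± 123 and Mrpl22 at 493 ± 125 lay within each other's spread, below Mrpl33 at 776 ± 44.6. In wild-type single embryos, Mrps5 at 14.1 ± 1.23 and Mrpl19 at 14.7 ± 2.50 differed by less than the larger SD. In control pools Mrps5 at 8.49 ± 0.720 was clear of Mrpl19 at 17.2 ± 1.34 and Mrpl48 at 28.1 ± 6.21 (n = 2). The order of levels was largely kept between libraries: over the 77 genes, the lowest Spearman correlation between any 2 libraries was 0.849, a description across genes, which are not independent and share their lengths.

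**Figure D4:**
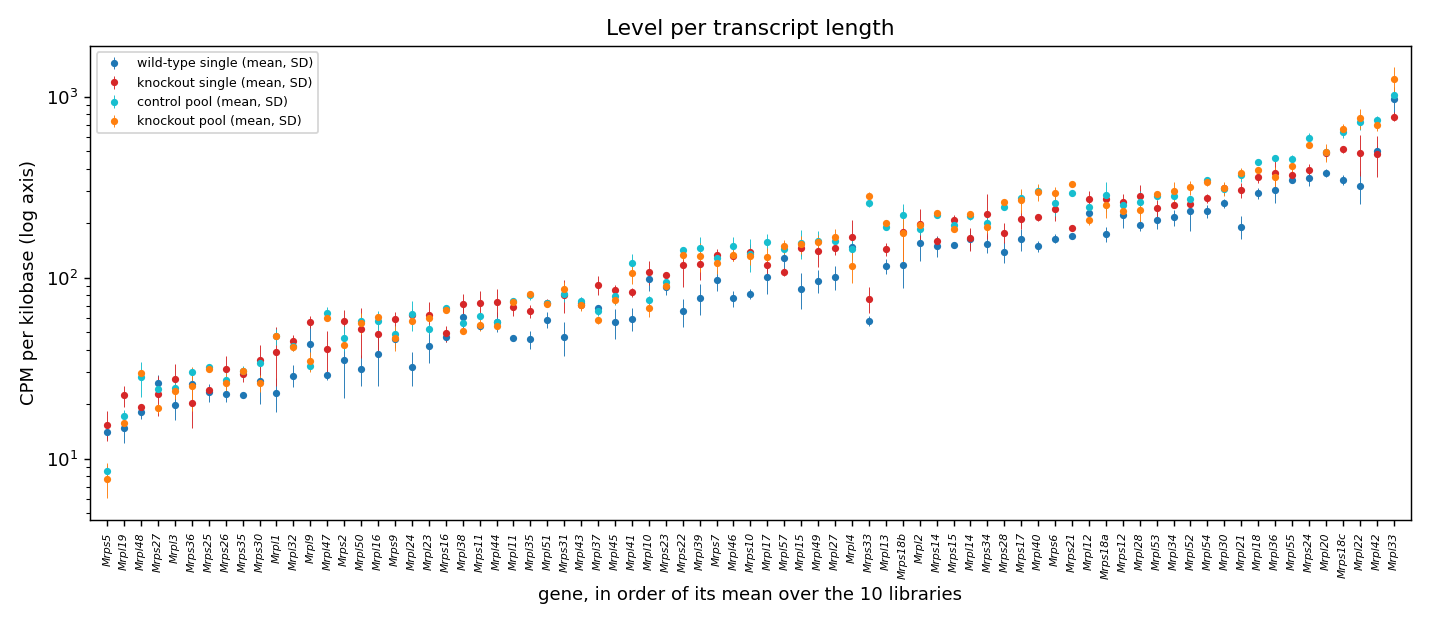
CPM per kilobase of transcript (log axis) of the 77 genes, in order of their mean over the 10 libraries; points are group means and bars SDs (n = 3 for the single-embryo groups, n = 2 for the pools). Levels run from 12.1 (Mrps5) to 979.7 (Mrpl33) CPM per kilobase, and the gap between single embryos and pools is widest for Mrps33.

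The genes are scattered over 17 chromosomes, and many of them share a start region with a gene on the other strand. In the RefSeq annotation of GRCm38.p6, 32 of the 77 (41.6%) have a divergent neighbour whose start lies within 1 kb, against 16.1% of the 11781 coding genes tested. This did not separate the changes: those 32 genes had a median log2 change of 0.44 in single embryos and the other 45 one of 0.43. Of the neighbours outside the family, 29 were tested in single embryos. Of these, 14 were above 0 (against 48.3% of all genes tested), and their median was -0.01 (against -0.035). The neighbours were not matched to the family in length or level, with which the changes in single embryos varied. Of the 29, 1 was called, against 4.37% of all genes tested. It was Tmem63b, which overlaps Mrpl14, at -1.35 (adjusted p = 0.0328), where Mrpl14 was at 0.07. Among pairs chosen after their values were seen, Mrpl40 was at 0.59 and its neighbour Hira, a histone chaperone gene, at -0.67 (adjusted p = 0.342). Mrpl32 and Psma2, a proteasome subunit gene, were both higher, at 0.68 and 0.69 (adjusted p = 0.0869 and 0.0540).

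**Figure D5:**
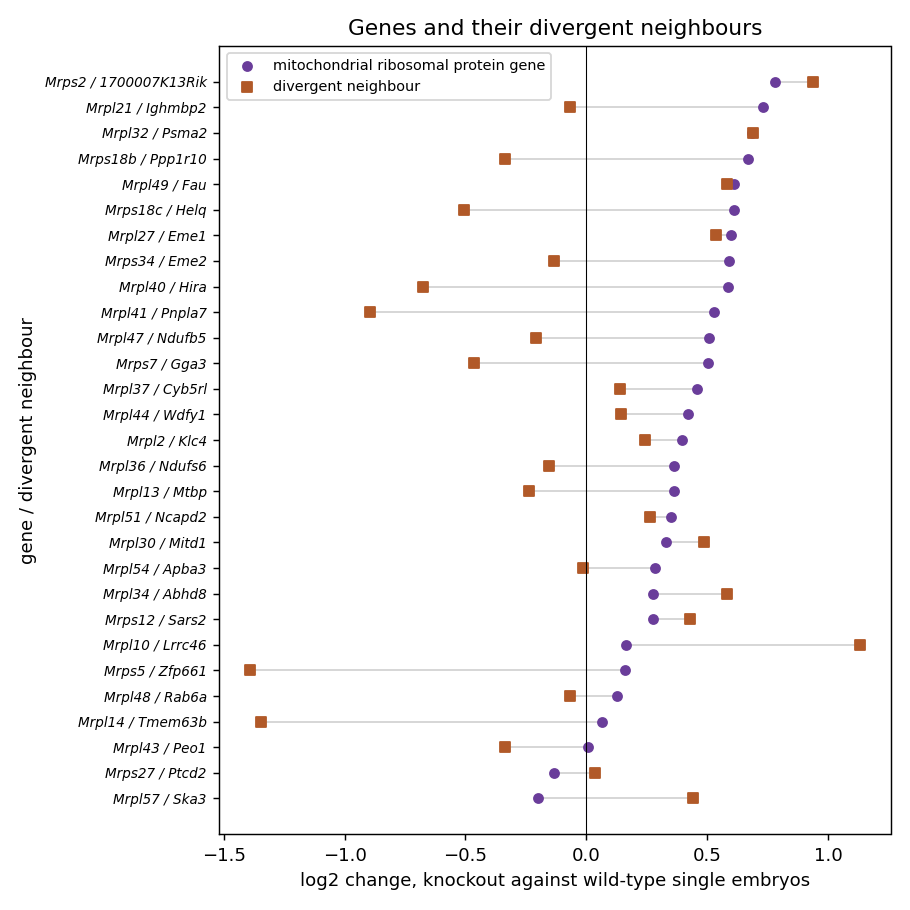
Log2 change in single embryos of 29 mitochondrial ribosomal protein genes (circles) and of their divergent neighbours outside the family (squares), 1 pair a row in order of the family gene's change. The circles lie between -0.20 and 0.78, while the squares spread from -1.39 (Zfp661, edgeR adjusted p = 0.635) to 1.13 (Lrrc46, adjusted p = 0.569).

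The 1 pair within the family was Mrpl46 and Mrps11, whose starts face away from each other across a gap of 41 bases at chr7:78783090-78783130. Mrps11, whose bacterial homologue lies on the platform of the small subunit (chr7:78783131-78792988), was at 54.0, 59.1 and 58.7 CPM in wild-type and 74.5, 63.7 and 90.2 CPM in knockout single embryos, without overlap (log2 change 0.47, SE 0.24, adjusted p = 0.287). In the pools both genes were at -0.25. The gap is shown because it holds all the sequence between the starts of the 1 gene that passed the test and its partner, and it is read on the strand of Mrpl46 (minus).
Mrpl46: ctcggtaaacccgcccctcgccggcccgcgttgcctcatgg

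Promoters of this family are known for sites of the ETS factor GABP (Gabpa with Gabpb1), NRF1 and YY1. RefSeq promoter windows of GRCm38.p6 (250 bases before to 50 after a start) were found for 68 of the 77 genes and were searched on both strands. The ETS letters CCGGAAGT were in 12 of the 68 (17.6%, against 4.31% of all 27025 genes with a window and 8.93% of those tested). The YY1 letters AAGATGGC were also in 12 (17.6%, against 3.19% and 5.32%), and the NRF1 letters GCATGCGC in 8 (11.8%, against 3.05% and 5.98%). At least 1 of these was in 29 (42.6%, against 18.8% of tested genes). In single embryos the median log2 change was 0.35 with and 0.45 without the ETS letters, 0.46 and 0.43 for YY1, and 0.56 and 0.43 for NRF1. A match describes letters, not binding.

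The 150 bases before the starts of Mrps22 and Mrpl17 show 2 of these matches close to the start, with the matching letters in capitals. Mrps22 (chr9:98601680-98601829, minus strand) holds the ETS letters from 11 to 4 bases before its start, and Mrpl17 (chr7:105811088-105811237, minus strand) the NRF1 letters, on the opposite strand, at the same distance. Mrps22 was named above for the difference between the sets and Mrpl17 for its change in the pools.
Mrps22: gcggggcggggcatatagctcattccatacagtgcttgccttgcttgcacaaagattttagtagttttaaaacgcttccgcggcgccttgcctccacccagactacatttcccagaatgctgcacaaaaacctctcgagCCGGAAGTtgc
Mrpl17: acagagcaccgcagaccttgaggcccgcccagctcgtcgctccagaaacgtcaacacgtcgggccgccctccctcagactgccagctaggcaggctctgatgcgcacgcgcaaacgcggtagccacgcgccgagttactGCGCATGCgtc

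Of the 6 mitoribosomal proteins whose genes carry other names, all had changes above 0 in single embryos (median 0.22), against 48.3% of all genes tested. EdgeR called 1 of the 6 higher, against 1.16% of all genes tested. That was Ict1, which encodes the large-subunit protein also called Mrpl58, a peptidyl-tRNA hydrolase that releases stalled ribosomes. It was at 76.3, 111 and 84.8 CPM in wild-type and 134, 192 and 165 CPM in knockout single embryos, with a log2 change of 0.89 (SE 0.22, adjusted p = 0.0428). Every knockout exceeded every wild-type embryo. Over the 16 alternatives its adjusted p ranged from 0.00144 to 0.231. In the pools all 6 were below 0 (against 48.7% of all genes tested), and none was called, as none was of all genes. Dap3, a small-subunit GTP-binding protein, was at 130.4 and 132 CPM in control and 107 and 109.8 CPM in knockout pools (log2 change -0.36, SE 0.16). Ptcd3, a pentatricopeptide small-subunit protein, was at -0.24 in the pools (SE 0.19) and 0.49 in single embryos (SE 0.25).

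The changes of factors that work with the ribosome ran in both directions. With the settings used for the family, edgeR called none of the genes below in either set. DESeq2 called 3 of 15 translation factors higher in single embryos, Tufm, Tsfm and Mrrf (adjusted p = 0.0230, 0.0414 and 0.0226). It also called 1 of 24 assembly factors, Ngrn, and 1 of 8 tested regulators, Gabpb1 (adjusted p = 0.0464 and 0.0307). Of 17 genes for mitochondrial DNA it called 0, and of all genes tested it called 6.88% higher. EdgeR with no filter called Mrrf (adjusted p = 0.0491). Of 15 translation factors, 8 were above 0 in single embryos (53.3%, against 48.3% of all genes tested, median 0.17). Tufm, the elongation factor that delivers aminoacyl-tRNA, was at 40.2, 58.5 and 62.2 CPM in wild type and 87.2, 80.6 and 96.5 CPM in knockouts (log2 change 0.77, SE 0.25, adjusted p = 0.107). Mrrf, the recycling factor, was at 10.2, 22.8 and 14.3 CPM in wild type and 31.7, 25.4 and 40.2 CPM in knockouts (log2 change 1.10, SE 0.37, adjusted p = 0.111). Gfm2, its partner in recycling, lay the other way, at 76.3, 62.0 and 53.3 CPM in wild type and 38.3, 31.2 and 40.8 CPM in knockouts (log2 change -0.74, SE 0.26, adjusted p = 0.129). Guf1, a back-translocating elongation factor, was also lower in every knockout, at 18.3, 14.8 and 18.2 CPM in wild type and 8.99, 6.63 and 10.7 CPM in knockouts (log2 change -0.90, SE 0.39, adjusted p = 0.195). In the pools Gfm2 was at -0.43 and Guf1 at -0.53.

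Of 24 assembly and rRNA-modifying factors, 19 were above 0 in single embryos (79.2%, against 48.3% of all genes tested, median 0.33). In the pools 8 were above 0 (33.3%, against 51.3% of all genes tested). Ngrn, needed for the large-subunit rRNA, was at 47.8, 47.1 and 66.4 CPM in wild type and 70.7, 94.7 and 83.1 CPM in knockouts (log2 change 0.66, SE 0.24, adjusted p = 0.143). Mterf3, which takes part in large-subunit assembly, was at 0.72 (SE 0.32) in single embryos and -0.59 (SE 0.24) in the pools. With 1 pool left out, its change in the pools lay between -1.02 and -0.25. Nsun4, an rRNA methyltransferase, was at -0.61 (SE 0.26) in the pools. Of 17 genes for transcription, replication and RNA processing of mitochondrial DNA, 11 were above 0 in single embryos (64.7%, against 48.3%, median 0.18). Trmt10c, a subunit of mitochondrial RNase P, was at 0.75 (SE 0.29). It passed the threshold in 1 of the 16 alternatives, over which its adjusted p ranged from 0.0464 to 0.576. Polg, the catalytic subunit of the mitochondrial DNA polymerase, was at -0.66 (SE 0.30) in single embryos and 0.28 (SE 0.21) in the pools, and Peo1, the helicase Twinkle, at 0.33 (SE 0.22) in the pools.

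Of 9 regulators of mitochondrial biogenesis, 8 were tested, of which 2 were above 0 in single embryos (median -0.21). Ppargc1a, a coactivator known from oxidative tissues, was the one left out for low counts. Gabpb1, a subunit of GABP, was at 47.2, 62.7 and 59.6 CPM in wild type and 91.1, 81.3 and 88.3 CPM in knockouts, with no overlap (log2 change 0.67, SE 0.23, adjusted p = 0.120). Pprc1, a coactivator related to Ppargc1a, was at 100.3, 88.9 and 72.9 CPM in wild type and 59.4, 77.1 and 36.1 CPM in knockouts (log2 change -0.57, SE 0.28, adjusted p = 0.263), with overlap. In the pools Yy1 was at 0.30 (SE 0.19) and Gabpa, the DNA-binding subunit of GABP, at -0.21 (SE 0.17).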

How the data were processed

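The authors deposited whole-number read counts per gene, without normalization, in 1 table of 10 libraries. Per the labels' protocols, polyadenylated RNA was converted with SMART-Seq v4, built into Nextera XT libraries and read as single 75-base reads. The submitters' processing notes list the assembly mm10 with RSEM 1.3.1, STAR 2.7.6a and fastp 0.21.0. The tool behind the counts and its handling of strand and multiply matching reads are not stated in the sources used here. A knockout single embryo 2 was not analysed here. Dates stood in place of 27 gene symbols.

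Groups came from the sample labels. Counts were fitted with edgeR 4.0.16 (R 4.3.3): filterByExpr with groups, TMM scaling (factors 0.925 to 1.08), quasi-likelihood F tests, two-sided, and Benjamini-Hochberg adjustment over all genes at 5%. Each set was fitted by itself, and the difference of the knockout effects over all 10 libraries as an interaction. CPM used library totals. Lengths were medians over coding transcripts of GENCODE M21 basic; positions and sequences came from RefSeq, GRCm38.p6. Alternatives were other scalings and filters, DESeq2 1.42.0, limma-voom 3.58.1, robust fitting, all libraries in 1 fit, each library left out in turn, and a block for replicate number; the use of non-overlapping genes only was chosen after seeing the data. On simulated counts, 6% of 2-fold and 54% of 4-fold changes were recovered in the single-embryo design (13190 genes), and 39% and 75% in the pools (15744 genes). Replicates differed by more than sampling noise (49.4 to 88.4 per gene by chi-square). The labels name separate embryos but not separate litters, so p-values measure the spread between these libraries, which for the pools may be technical. Reads carried no molecular identifiers.

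The genes, lists and tests were chosen with earlier results of these data known. Genes were named by rule: all past 5%, or the 4 of smallest p per set and direction, the 3 of smallest p for the difference, the 3 highest and 3 lowest levels per length, the Mrps18 paralogues, Mrps30, and in each pathway list those past 5% or the 2 of smallest p per set; others are marked where named.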

Additional observations from a re-analysis of the deposited data

How the results depend on the processing

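The direction of the family's median held under every alternative run in both sets, while the number of genes called in single embryos did not. That number, 1 with edgeR, was 3 with DESeq2 size factors, 6 with upper-quartile scaling, 2 with no scaling, 13 with no filter, 8 with a minimum of 5 CPM, 24 with DESeq2, 4 with limma-voom, 3 with robust fitting and 16 with all 10 libraries in 1 fit, all of them higher in knockouts. Over all genes the calls, 605 in either direction, were 597, 724, 668, 1715, 1105, 1957, 757, 628 and 1667 in the same order. Leaving out 1 library gave 0 to 15 genes (1 to 1316 of all genes) and a median of 0.32 to 0.54. Same-numbered libraries of the 2 groups were not correlated in their deviations in single embryos (r = -0.014 and -0.085, against -0.158 to 0.156 for other pairs). In the pools r was 0.315 for same-numbered pairs and -0.315 for the others. With 2 libraries a group, deviations from the group mean mirror each other, so only the sign of r depends on the numbering. The pool value therefore cannot show a pairing. Nothing in the labels says that a number marks a shared litter. With the replicate number as a block, over the 4 single embryos that share one, 0 genes were called (187 of all genes) and the median was 0.31, and the pools kept 0 calls.

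In the pools the median was -0.042 with no scaling and -0.24 to -0.020 with 1 library left out, which leaves 1 library in a group. For the difference between the sets, DESeq2 called 8 genes (544 of all genes) and edgeR with no filter 4 (548). Among the genes named by rule, in the set for which each was named, the signs that turned were those of Mrps27 in single embryos (0.10 without knockout replicate 3, -0.28 without knockout replicate 4) and of Mrpl23 (-0.0052 to 0.21) and Mrps21 (-0.0027 to 0.17) in pools, both below 0 without knockout replicate 1. The log2 change of Jarid2 in single embryos was -1.92 (adjusted p = 0.0342) and -2.53 to -1.52 with 1 library left out, where the call was lost without wild-type replicate 1 or 3 or knockout replicate 1 or 4. In the pools it was -1.55 (adjusted p = 0.0794), past the threshold with no filter (-1.56), DESeq2 (-1.57), limma-voom (-1.56) and the replicate block (-1.56), and also with any 1 library left out (-1.73 to -1.40). The cause of these changes was not tested. Groups of 2 and 3 libraries limit the precision.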
